A study of Danio rerio with 15 samples.

Results

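Zebrafish embryos that lacked both axin2 and nkd1 (axin2-/-;nkd1-/-, called double mutants here) were set against embryos that lacked axin2 alone (axin2-/-), which shows what the further loss of nkd1 adds in embryos already without axin2. The comparison rests on 6 of the 15 RNA-seq samples of the series, 3 double mutant and 3 axin2-/- samples, taken by the genotype in their labels. Each sample was RNA from a pool of 10 embryos at 50% epiboly, a gastrula stage at which the cell sheet covers the upper part of the yolk. Both sides carry the axin2 mutation. The other groups used are nkd1-/- embryos and the unmutated strains Tu and TL, with 3 samples each. Both mutations were made with a guide RNA and Cas9. The axin2-/- line has the TL background and the nkd1-/- line the Tu background, and the double mutants come from a cross of those lines. Double mutants therefore carry Tu and TL ancestry, whereas axin2-/- embryos carry TL ancestry. The replicates of a group shared their parents and were collected on different days, so every p-value here is set by how collections from one family varied. Family and genotype cannot be told apart.

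Wnt ligands bind Frizzled receptors with the co-receptors Lrp5 and Lrp6, act through Dishevelled and keep β-catenin from being destroyed, so that β-catenin and Tcf/Lef factors switch on target genes. Axin2 is a scaffold of the complex that destroys β-catenin, and Nkd1 binds Dishevelled. Both are themselves switched on by Wnt signalling and restrain it as negative feedback. In the zebrafish gastrula, Wnt signalling patterns the ventrolateral margin and restricts the dorsal organizer and the anterior neural plate.

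The table of counts held 32520 genes by Ensembl ID, of which 21614 passed a filter on low counts and were tested with edgeR's quasi-likelihood test. A gene was called at a Benjamini-Hochberg adjusted p under 0.05, and log2 differences are given with their standard error (SE). Levels are library-size-scaled counts (CPM, with TMM scaling), which serve to compare samples within a gene and not one gene with another. Library totals ran from 44098543 to 55409573 counts in double mutants and from 45174235 to 51661037 in axin2-/-. Gastrula genes such as tbxta, tbx16, chrd, GSC and sox32 were detected in all samples. Symbols in capitals are human-style names given by the name table to zebrafish genes, and 3002 of the tested IDs share a symbol with another ID, so IDs are given where copies matter. Near-identical copies and overlapping genes may share reads, since the counting method and its use of strand are not given in the sources used here. Samples are pools of whole embryos, in which fewer cells of a type and less RNA per cell cannot be told apart.

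The transcripts of both targeted genes were present in every group. NKD1 (ENSDARG00000020053) stood at 21.5, 22.1 and 26.6 CPM in double mutants, against 18.7, 27.4 and 15.2 CPM in axin2-/-. The groups overlapped, and the log2 difference of 0.20 (SE 0.19, 95% interval -0.21 to 0.60) was not called (adjusted p = 0.45). Single samples moved it: it was 0.47 (adjusted p = 0.0591) without axin2-/- replicate 2, 0.03 without axin2-/- replicate 3 and 0.10 without double mutant replicate 3. In nkd1-/- embryos NKD1 stood at 17.8, 26.0 and 21.3 CPM, against 11.0, 12.5 and 13.7 CPM in Tu, a called rise of 0.81 on the log2 scale (SE 0.20, adjusted p = 0.0052). AXIN2 (ENSDARG00000100149) stood at 101, 111 and 106 CPM in double mutants and at 100, 99.9 and 83.4 CPM in axin2-/-. The groups lay side by side without overlap, and the difference of 0.17 (SE 0.12, 95% interval -0.08 to 0.42) was not called either (adjusted p = 0.28), and was 0.09 without axin2-/- replicate 3. Against their strains, both single mutants had called rises of AXIN2. These were 0.46 (SE 0.12, adjusted p = 0.0083) in nkd1-/- against Tu and 0.48 (SE 0.12, adjusted p = 0.0081) in axin2-/- against TL. A count over a whole gene does not show a small Cas9 deletion or insertion, so these values do not check the genotype labels.

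The double mutant differed from axin2-/- at 8340 of 21614 genes tested, which is 38.6%. Of these, 4116 genes (19.0% of genes tested) were higher and 4224 (19.5%) were lower in double mutants, and 4385 (20.3%) differed by at least 1 on the log2 scale. Samples of the compared groups lay apart on the whole transcriptome: the mean distance on log2 CPM was 189.2 between double mutants and axin2-/-, against 97.2 among double mutants and 108.5 among axin2-/-. Distances of that size also separated the strains, with 184.3 between Tu and TL. Double mutants lay about as far from either strain, at 186.0 from TL and 183.7 from Tu. The mean distance was 140.3 between double mutants and nkd1-/- and 162.1 between axin2-/- and TL. Tu differed from TL at 6712 genes (31.1%), a comparison that shares no sample with the first. Of the 8340 genes, 3109 (37.3%) also separated Tu from TL, which is 46.3% of the 6712 strain genes. The remaining 5231 (62.7%) had no strain call.

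Genes that separated the strains fell into 2 classes. At 2058 genes the double mutant differed from axin2-/- in the same direction as Tu differed from TL, and these are called Tu-like. Of these, 1090 rose and 968 fell in double mutants, with a median absolute difference of 1.24 for the double mutant against axin2-/- and 1.22 for Tu against TL. At 1051 genes, called TL-like, the double mutant differed in the opposite direction, with 517 rises and 534 falls. Tu-like genes thus made up 66.2% of the genes called in both comparisons and 24.7% of all genes called between double mutant and axin2-/-, and TL-like genes made up 33.8% and 12.6%.

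**Figure D1:**
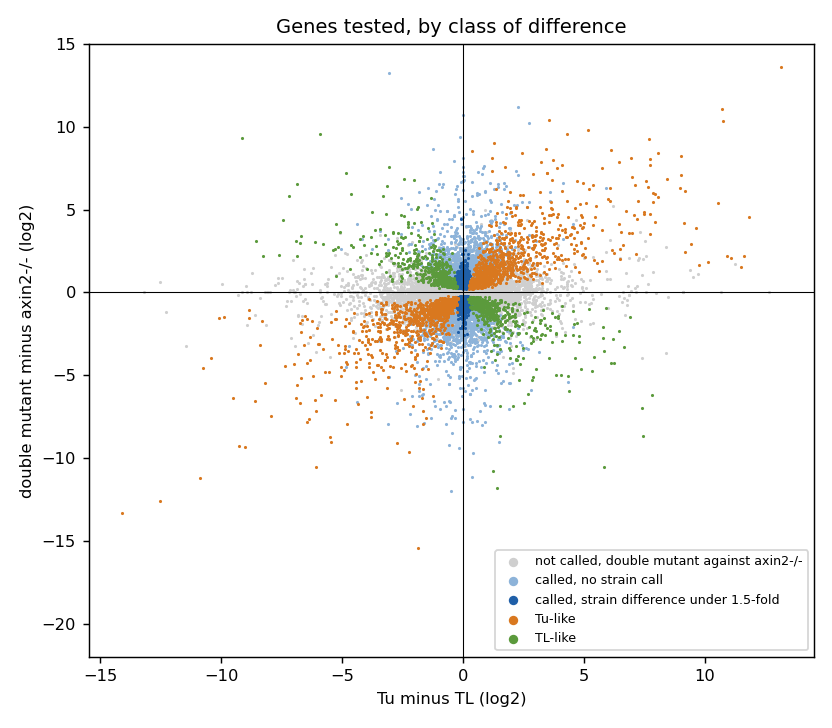
Log2 difference of the double mutant against axin2-/- (vertical) and of Tu against TL (horizontal) for each of the 21614 genes tested, coloured by class. The 2058 Tu-like genes lie at the upper right and lower left and the 1051 TL-like genes at the upper left and lower right, while most of the 5231 genes with no strain call lie near the vertical axis.

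The share of genes called between double mutant and axin2-/- changed little with the size of the strain difference. It was 38.2% of the 6796 genes whose absolute Tu against TL difference was under 0.25 on the log2 scale, 37.3% of the 4755 genes between 0.5 and 1, and 44.4% of the 2066 genes at 2 or more. The direction changed more: among called genes, those with the sign of Tu minus TL made up 53.6% in the lowest bin, 60.4% in the middle bin and 73.2% in the highest. By the strain call itself, 46.3% of strain genes and 35.1% of the 14902 other genes were called between double mutant and axin2-/-. Across the genes tested, the 2 differences had a Pearson correlation of 0.23 and a Spearman correlation of 0.15 (n = 21614 genes, which are not independent replicates).

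**Figure D2:**
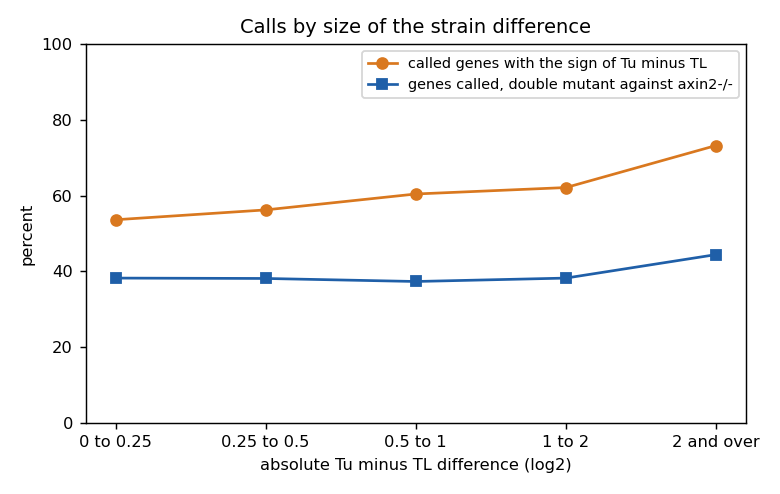
Percent of genes called between double mutant and axin2-/- (squares) and percent of those called genes that have the sign of Tu minus TL (circles), by absolute log2 difference of Tu against TL. The share called stays between 37.3% and 44.4%, and the share with the strain sign is 53.6% in the lowest bin and 73.2% in the highest.

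Whether a difference was larger or smaller than the strain difference was tested directly, as the double mutant against axin2-/- difference minus the Tu against TL difference. This test called 6735 genes (31.2%). Among the Tu-like genes, 408 (19.8%) differed from the strain difference, and among the 5231 genes with no strain call 2828 (54.1%) did. All 1051 TL-like genes passed this test, which their opposite signs favour by construction. The other shares are shaped by the choice of genes too, since the same 2 comparisons define the classes. A call in the first comparison alone favours a pass, and calls in both with the same sign work against one. The gap between 19.8% and 54.1% is therefore a description. A missing strain call does not show equal strain levels, so genes were also set apart whose 95% interval for Tu against TL lay within 1.5-fold either way. These strain-bounded genes numbered 1868 of the 5231, with 940 rises and 928 falls and a median absolute difference of 0.57. The bound needs precise estimates, and these genes had a median level of 43.2 CPM, against 7.18 CPM for all genes with no strain call.

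The largest Tu-like differences included genes near 0 CPM on one side and well expressed on the other. s100s (ENSDARG00000036773), an S100-family calcium-binding protein gene, stood at 30.6, 31.8 and 31.3 CPM in double mutants, against 0.0962, 0.0621 and 0.108 CPM in axin2-/-. It averaged 31.9 CPM in nkd1-/- and 23.0 CPM in Tu, against 0.085 CPM in TL. Double mutants were far above every axin2-/- sample, by 8.42 on the log2 scale (SE 0.34, adjusted p = 6.4e-13), and Tu exceeded TL by 8.06 (SE 0.33). ENTREP1 (ENSDARG00000099946) ran the other way, at 0.305, 0.665 and 0.445 CPM in double mutants and 20.8, 76.1 and 54.9 CPM in axin2-/-. The 3 axin2-/- samples spread widely but all lay above double mutants, and the difference was -6.75 (SE 0.40, adjusted p = 9.5e-09) beside -4.35 (SE 0.43) for Tu against TL. TNC, which encodes the matrix protein tenascin C, fell by 5.11 (SE 0.29), and serpinb1l4, a serine protease inhibitor gene, fell by 4.75 (SE 0.30).

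Not every Tu-like gene tracked the strains in all 5 groups. il23r, an interleukin receptor gene, stood at 42.7, 49.0 and 50.4 CPM in double mutants and at 1.0, 1.41 and 0.713 CPM in axin2-/-, a difference of 5.50 (SE 0.30, adjusted p = 4.2e-09). It was high in Tu, at 35.9 to 47.7 CPM, but in nkd1-/- embryos, made in Tu, it stood at 0.377 to 1.34 CPM, below every Tu sample. znf1156, a zinc finger gene, stood at 34.7, 33.3 and 32.3 CPM in double mutants, against 0.0577, 0.103 and 0.108 CPM in axin2-/-. Both strains expressed it, at 29.5 to 38.6 CPM in Tu and 23.4 to 26.9 CPM in TL, so that the axin2-/- samples alone were near 0. The strain call of znf1156 lay close to the threshold, at 0.37 (SE 0.14, adjusted p = 0.0498). HAPLN4, a hyaluronan link protein gene, averaged 52.6 CPM in double mutants and 0.0665 CPM in axin2-/-, beside 86.3 CPM in Tu. It varied within TL, at 0.193, 7.55 and 5.40 CPM, a mean of 4.38 CPM. antxr1c, of the anthrax toxin receptor family, averaged 0.197 CPM in double mutants and 15.2 CPM in axin2-/-, while Tu averaged 8.40 CPM and TL 19.9 CPM.

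At TL-like genes the double mutant differed from axin2-/- with the sign opposite to Tu minus TL, which does not mean that its level lay nearer to TL. SLC5A2 (ENSDARG00000100919), a sodium-glucose cotransporter gene, stood at 12.9, 13.6 and 16.6 CPM in double mutants and at 4.19, 0.745 and 0.281 CPM in axin2-/-. The groups did not overlap, and the difference was 3.03 (SE 0.53, adjusted p = 0.00046), against -6.13 (SE 0.77) for Tu minus TL. nkd1-/- samples were also high, at 11.1 to 15.5 CPM, where Tu samples stood at 0.0756 to 0.275 CPM. TMEM97 (ENSDARG00000040553), a sterol-related membrane protein gene, stood at 0.428, 0.458 and 0.519 CPM in double mutants and at 20.1, 17.5 and 17.1 CPM in axin2-/-. All double mutant samples were low, by -5.27 (SE 0.25, adjusted p = 6.01e-10), while Tu exceeded TL by 2.31 (SE 0.22). Among the other large TL-like differences, the integrin gene ITGA10 rose by 4.85 (SE 0.57), the apolipoprotein gene apoa1a by 4.16 (SE 0.45) and SCHIP1 by 3.23 (SE 0.24), the last to 9.76 CPM in double mutants, against 1.04 CPM in axin2-/- and 1.87 CPM in TL. STYXL2 fell by 5.30 (SE 0.56) and NCKAP1L, a subunit of an actin-regulating complex of blood cells, by 3.71 (SE 0.26). The ubiquitin ligase gene trim25 fell by 2.56 (SE 0.45). At STYXL2 and NCKAP1L the axin2-/- samples were above all others, with means of 10.3 and 17.8 CPM. No sample of another group exceeded 3.25 CPM at STYXL2 or 3.93 CPM at NCKAP1L. At trim25, nkd1-/- and Tu samples were high too, at 18.9 to 37.5 CPM. Against TL, axin2-/- embryos were called higher by 5.21 at STYXL2 and 3.98 at NCKAP1L. Of the 1051 TL-like genes, 626 (59.6%) were called between axin2-/- and TL. The share was 24.5% of Tu-like genes and 30.7% of all 8340 genes called between double mutant and axin2-/-. The axin2-/- and TL samples also define the classes, so these shares are a description. By construction this favours a higher share among TL-like genes and a lower one among Tu-like genes.

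The strain-bounded genes held large differences at genes that Tu and TL expressed alike within 1.5-fold. Those named here were taken first from the 611 of 1868 that also moved the same way in nkd1-/- against Tu. Their agreement with that comparison was therefore set by the choice. mxtx2 (ENSDARG00000015906), a homeobox gene of the yolk syncytial layer, stood at 19.0, 10.4 and 12 CPM in double mutants, against 78.5, 67.9 and 67.5 CPM in axin2-/-. It stood at 22.5, 19.4 and 19.1 CPM in nkd1-/-, against 47.2, 50.3 and 42.3 CPM in Tu, and averaged 54.0 CPM in TL. Both mutant groups without nkd1 were below all other samples, with a fall of 2.37 (SE 0.17, adjusted p = 3.97e-08) against axin2-/- and of 1.2 (SE 0.17, adjusted p = 6.4e-05) against Tu. PKP3 (ENSDARG00000079438), a plakophilin of desmosomal junctions, stood at 8.68, 11.0 and 7.86 CPM in double mutants and at 57.2, 51.5 and 47.1 CPM in axin2-/-. It fell by 2.50 (SE 0.17, adjusted p = 2.9e-08), and fell in nkd1-/- against Tu by 0.94 (SE 0.17). TRDMT1, a transfer RNA methyltransferase gene, fell by 2.15 (SE 0.16) and the kinesin gene KIF21B by 2.13 (SE 0.24).

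Rises of this class, named by the same rule, included an organizer gene. FOXA2 (ENSDARG00000003411), a transcription factor of the organizer and endoderm, stood at 16.7, 18.5 and 19.8 CPM in double mutants, against 6.19, 6.33 and 7.85 CPM in axin2-/-. No sample overlapped, and the rise of 1.43 (SE 0.17, adjusted p = 9.04e-06) stood beside one of 1.25 (SE 0.17) in nkd1-/- against Tu, while Tu and TL differed by -0.03 (SE 0.17). ARRDC2, an arrestin-domain gene, rose by 1.95 (SE 0.14), the zinc finger gene znf1096 by 1.55 (SE 0.16) and the kinase gene ptk6a by 1.5 (SE 0.21). For ARRDC2 the axin2-/- samples stood at 11.4, 8.09 and 7.80 CPM, below the 22.2 to 24.3 CPM of both strains, and double mutants stood at 35.5, 37.7 and 32.4 CPM, above them.

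**Figure D3:**
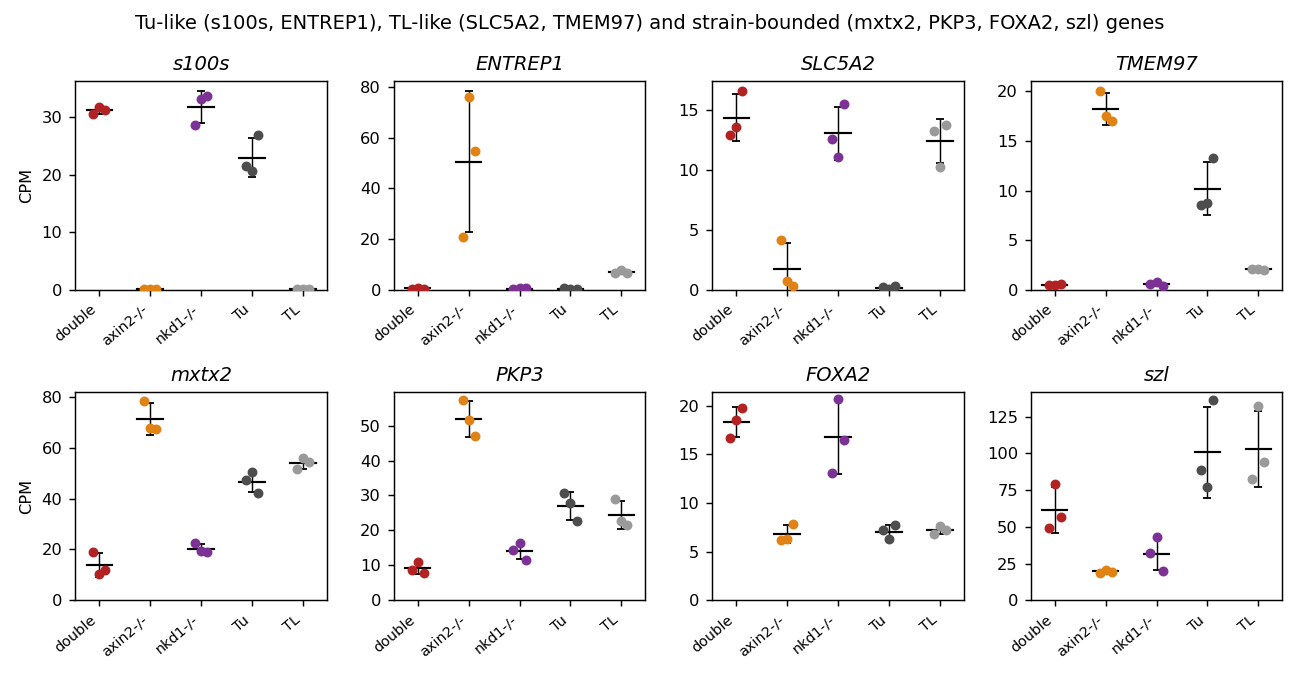
Level per sample in CPM (points, with mean and SD, n = 3 a group) for Tu-like, TL-like and strain-bounded genes in the 5 groups. s100s is near 0 in axin2-/- and TL only, SLC5A2 is lowest in Tu, and mxtx2 is lower in double mutants and nkd1-/- than in the other groups.

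The loss of nkd1 was also measured in the other background, as nkd1-/- against Tu, which shares no sample with the double mutant against axin2-/-. Double mutants descend from the nkd1-/- line, however, so ancestry of that line lies on the same side of both comparisons. It cannot be told apart from nkd1 loss where both move the same way. The nkd1-/- against Tu comparison called 6324 genes (29.3%). Of the 5231 genes with no strain call, 1770 (33.8%, and 28.0% of the 6324) were called there, and 1545 of those (87.3%) moved the same way as in the double mutant, with 705 rises and 840 falls, while 225 moved the opposite way. Among the 1868 strain-bounded genes, 680 were called there and 611 of those (89.9%) moved the same way. Over all genes called in both comparisons the share was 2429 of 3097 (78.4%). Among Tu-like genes it was 247 of 666 (37.1%), and among TL-like genes 637 of 661 (96.4%). The Tu samples enter both the classes and nkd1-/- against Tu, with opposite signs, so the shares within classes are a description. By construction this lowers the share among Tu-like genes and raises it among TL-like genes. The 2 effects of nkd1 loss were tested against each other, and 5069 genes (23.5%) differed, of which 1666 had no strain call between Tu and TL and were called between double mutant and axin2-/-. A further 1419 were Tu-like. The strain ancestry and family of double mutants enter the comparison in both classes.

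Of 33 Wnt target and feedback genes tested, 8 (24.2%) were higher and 2 lower in double mutants, against 19.0% higher over all genes tested. Together this is 30.3% called, against 38.6% of all genes, and the median difference was 0.13, against 0.00. msgn1 (ENSDARG00000070546), a transcription factor of presomitic mesoderm, stood at 74.3, 67.9 and 71.5 CPM in double mutants, against 19.5, 37.3 and 17.7 CPM in axin2-/-. The groups did not overlap, with axin2-/- replicate 2 the nearest to the double mutants, and the rise was 1.52 (SE 0.34, adjusted p = 0.0024). In nkd1-/- against Tu it rose by 1.92 (SE 0.34), and Tu and TL differed by -0.02 (SE 0.34). sp5l (ENSDARG00000115868), an Sp-family factor that acts downstream of Wnt, stood at 284, 217 and 300 CPM in double mutants and at 95.8, 189 and 94.7 CPM in axin2-/-. Again replicate 2 of axin2-/- lay closest, and the rise was 1.08 (SE 0.29, adjusted p = 0.0087), beside 1.5 (SE 0.29) in nkd1-/- against Tu.

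SP5, its close relative, rose as well. It stood at 66.3, 70.1 and 74.8 CPM in double mutants and at 44.8, 37.2 and 33.2 CPM in axin2-/-, with Tu at 33.8 to 38.3 CPM and TL at 34.6 to 41.8 CPM. Double mutants were above all samples of axin2-/-, Tu and TL, and the rise of 0.87 (SE 0.14, adjusted p = 0.00012) stood beside 0.92 (SE 0.14) in nkd1-/- against Tu, with a strain difference bounded under 1.5-fold. LEF1, a transcription factor that binds β-catenin, stood at 43.3, 41.8 and 43.8 CPM in double mutants and at 16.4, 25.8 and 27.2 CPM in axin2-/-, a rise of 0.89 (SE 0.23, adjusted p = 0.00601). The homeobox genes cdx4 and IRX1 (ENSDARG00000056594) rose by 1.29 (SE 0.30) and 1.41 (SE 0.34). LEF1 and IRX1 also rose in nkd1-/- against Tu, by 1.74 and 1.58, while cdx4 differed by 0.64 and was not called. ved, a ventral repressor gene, rose by 0.61 (SE 0.12) and was strain-bounded, though in nkd1-/- against Tu it differed by -0.12 (adjusted p = 0.49).

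FZD10, a Frizzled receptor gene and Wnt target, was the only Tu-like riser of the list. It stood at 16.7, 11.6 and 13.5 CPM in double mutants and at 3.94, 4.64 and 4.02 CPM in axin2-/-, with Tu at 4.86 to 6.74 CPM and TL at 3.53 to 3.79 CPM. The rise of 1.73 (SE 0.19, adjusted p = 5.2e-06) exceeded the strain difference of 0.62 (SE 0.20), and the test between them gave an adjusted p of 0.0063. IRX3 (ENSDARG00000101076) fell by 0.63 (SE 0.14) beside -0.55 (SE 0.14) for Tu minus TL. Its difference in nkd1-/- against Tu was 0.13 and not called. mych, a Myc-family gene, overlapped between the groups and fell by 0.30 (SE 0.11, adjusted p = 0.045), a call that was lost without replicate 1 or 3 of axin2-/- or replicate 2 or 3 of the double mutant (adjusted p up to 0.24) and with the compared groups alone in the fit (adjusted p = 0.0556). The mesoderm factors tbxta and tbx16, the ventral factors vox and vent and the Wnt antagonist dkk1b were not called: their differences were 0.24, 0.08, 0.05, 0.03 and -0.38.

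**Figure D4:**
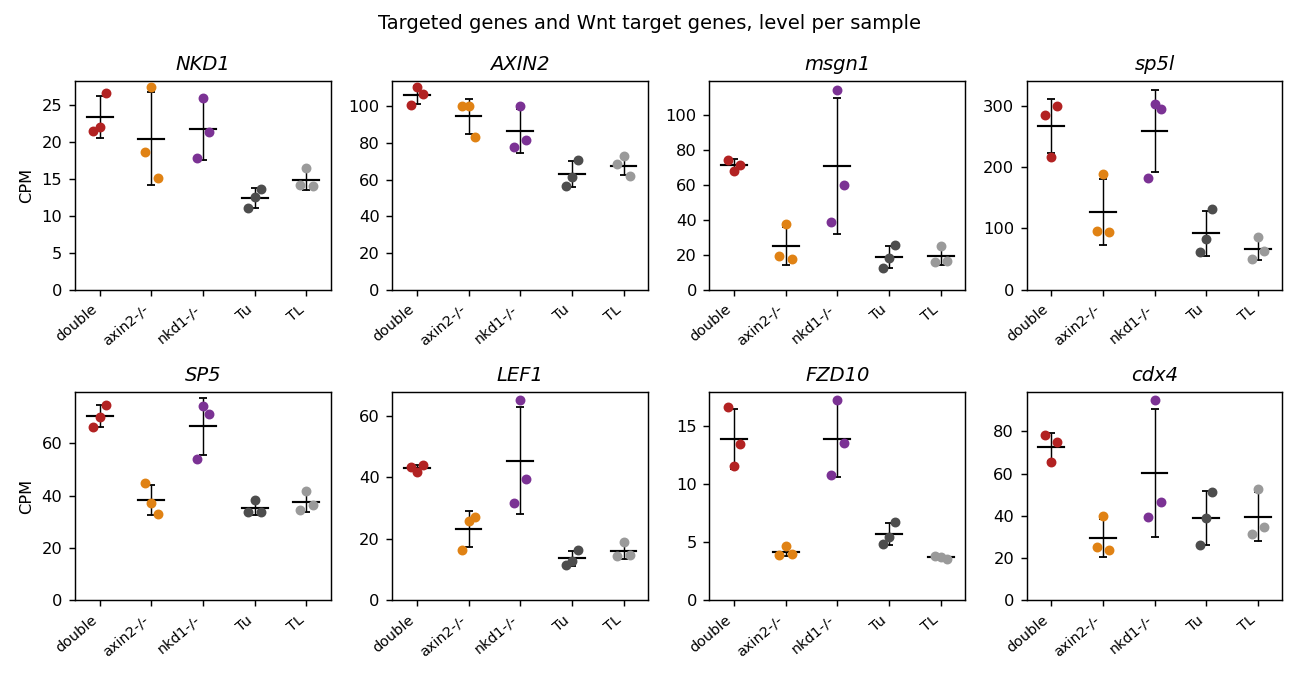
Level per sample in CPM (points, with mean and SD, n = 3 a group) for the targeted genes NKD1 and AXIN2 and for 6 Wnt target genes in the 5 groups. For msgn1, sp5l, SP5, LEF1, FZD10 and cdx4 every double mutant sample is above every axin2-/- sample, and axin2-/- replicate 2 is the highest of its group for msgn1, sp5l, FZD10 and cdx4.

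**Figure D5:**
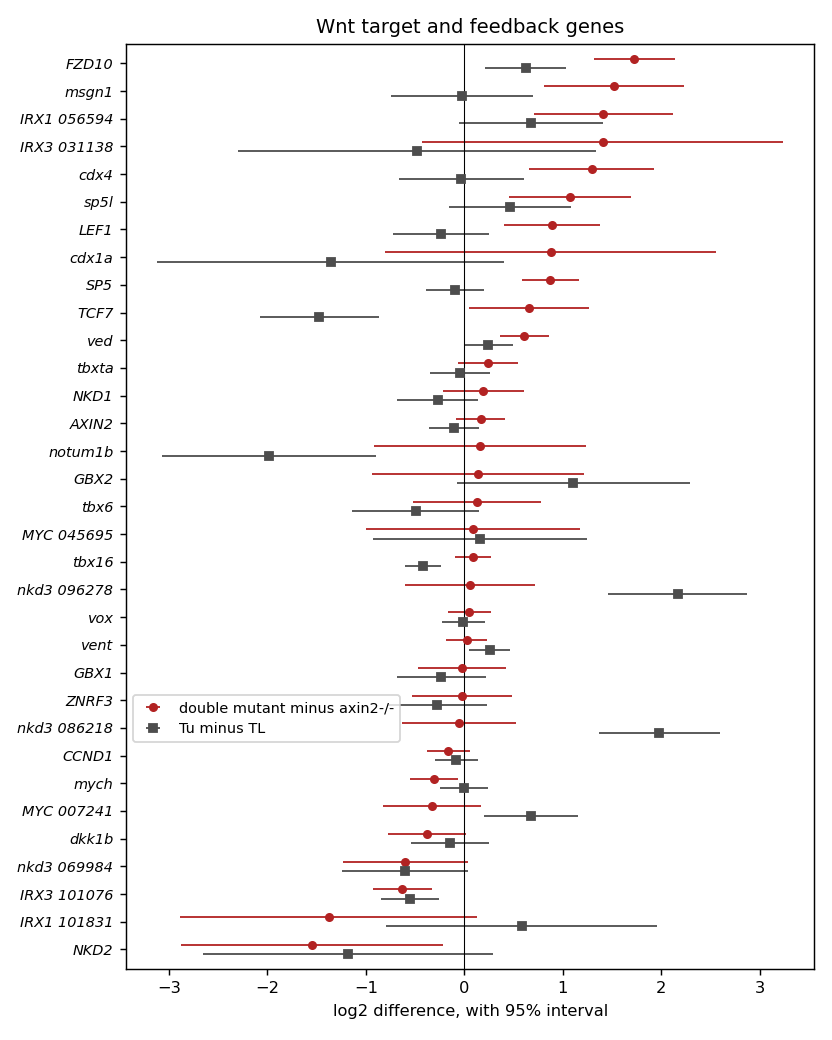
Log2 difference with its 95% interval for the 33 Wnt target and feedback genes tested, for the double mutant against axin2-/- (circles) and for Tu against TL (squares). From FZD10 (1.73) at the top to NKD2 (-1.54) at the bottom, 8 genes are called higher and 2 lower in double mutants, and the intervals of low genes such as NKD2 are wide.

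Ligands, receptors and other genes that carry the Wnt signal were described as a second list. Of 52 tested, 19 were higher and 4 lower in double mutants, which is 44.2% called, against 38.6% of all genes tested, with a median difference of 0.26. The largest was gsk3bb (ENSDARG00000052468), one copy of the kinase that marks β-catenin for destruction. It stood at 4.11, 3.0 and 3.91 CPM in double mutants, against 0.0577, 0.0207 and 0.0216 CPM in axin2-/-. nkd1-/- samples stood at 2.32, 2.85 and 2.69 CPM, while all Tu and TL samples were at 0.0411 CPM or below. Only the groups that lack nkd1, which also share ancestry of the nkd1-/- line, had more than traces. The rise of 6.66 (SE 0.51, adjusted p = 4.1e-09) stood beside 6.19 (SE 0.51) in nkd1-/- against Tu. The other copy, GSK3B (ENSDARG00000017803), rose by 1.13 (SE 0.17) but is TL-like, since Tu minus TL was -0.72 (SE 0.17).

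Several receptor genes rose. RYK, a Wnt co-receptor kinase gene, stood at 66.2, 65.7 and 64.6 CPM in double mutants and at 37.4, 39.4 and 37.0 CPM in axin2-/-. The groups lay far apart with little spread, and the rise of 0.79 (SE 0.13, adjusted p = 0.000203) came with a strain difference of 0.06 (SE 0.13). The co-receptor genes LRP6 and LRP5 rose by 0.60 (SE 0.17) and 0.49 (SE 0.18), and both were strain-bounded. The LRP6 call was lost without double mutant replicate 2 (adjusted p = 0.0599) and that of LRP5, whose groups overlapped, without replicate 1 or 2 of axin2-/- or replicate 2 or 3 of the double mutant (adjusted p up to 0.165) or with the compared groups alone in the fit. Frizzled genes rose at FZD3 (ENSDARG00000021664, 1.17), FZD7 (ENSDARG00000060004, 0.68) and, TL-like, FZD8 (ENSDARG00000038569, 0.79), while other copies of FZD3, FZD7 and FZD8 were not called. The receptor gene ROR1 fell by 0.88 (SE 0.27), a call lost without replicate 3 of either group (adjusted p up to 0.077). FZD9 (ENSDARG00000014673) differed by 0.51, a call lost without any one sample other than axin2-/- replicate 2 (adjusted p up to 0.126). Among ligands, WNT5B rose by 0.74 (SE 0.18), beside 1.02 (SE 0.18) in nkd1-/- against Tu. WNT4 and WNT11 (ENSDARG00000014796), both under 2 CPM in all 6 samples, fell by 2.72 (SE 0.76) and 1.62 (SE 0.42).

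Inside the cell, the Tcf repressor gene tcf7l1b rose by 0.73 (SE 0.14) and the low TCF7L2 by 2.21 (SE 0.52). The secreted inhibitor genes frzb, SFRP2 and SFRP1 (ENSDARG00000057678, TL-like) rose by 1.21 (SE 0.22), 2.07 (SE 0.60) and 2.25 (SE 0.49). The SFRP2 call was lost without double mutant replicate 1 (adjusted p = 0.0736). ctnnb2, one of the β-catenin genes, stood at 496, 1487 and 1059 CPM in double mutants, against 1984, 1528 and 1593 CPM in axin2-/-. Replicate 1 of the double mutants was lowest and replicate 2 came close to axin2-/-, and the fall was 0.75 (SE 0.24, adjusted p = 0.0194), a call lost without axin2-/- replicate 1 (adjusted p = 0.0698) and with the compared groups alone in the fit. CTNNB1, the other β-catenin gene, differed by 0.13 (SE 0.10, adjusted p = 0.305), and AXIN1 by 0.19 (SE 0.11, adjusted p = 0.18).

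Ventral and BMP pathway genes were called at 12 of 18 members, with 11 higher and 1 lower in double mutants, which is 66.7%, against 38.6% of all genes tested, and their median difference was 0.52. Leaving out 1 sample gave 9 to 10 members called. szl (ENSDARG00000099637), a secreted BMP feedback inhibitor, stood at 49.1, 78.9 and 56.5 CPM in double mutants, against 18.8, 20.7 and 19.5 CPM in axin2-/-. In nkd1-/- embryos it stood at 32.0, 42.9 and 20.3 CPM, against 88.8, 76.9 and 136 CPM in Tu, and TL averaged 103 CPM. Loss of nkd1 went with a rise of 1.64 (SE 0.25, adjusted p = 0.00012) where axin2 was lost and with a fall of 1.66 (SE 0.25, adjusted p = 0.00014) in Tu. The ligand gene BMP4 stood at 54.6, 60.5 and 52.4 CPM in double mutants and at 26.2, 29.7 and 21.6 CPM in axin2-/-. Tu averaged 55.6 CPM and TL 47.6 CPM, so the axin2-/- samples were the low ones, and the rise was 1.11 (SE 0.14, adjusted p = 1.6e-05). eve1, a ventral homeobox gene, rose by 0.76 (SE 0.18), SMAD7 by 0.62 (SE 0.15) and the better expressed SMAD6 copy (ENSDARG00000053209) by 1.42 (SE 0.28). That SMAD6 copy also rose in nkd1-/- against Tu, by 0.96, while eve1 differed by 0.05 and was not called. ID3, a BMP target gene, rose by 1.17 (SE 0.23) and is Tu-like, while GATA2 and BMP2 rose by 0.70 (SE 0.18) and 0.37 (SE 0.12) and are TL-like. The BMP2 call was lost without axin2-/- replicate 2 or double mutant replicate 1 (adjusted p up to 0.0973). DLX3 fell by 1.99 (SE 0.57), a call that was lost without axin2-/- replicate 1 (adjusted p = 0.12). The low SMAD6 copy (ENSDARG00000031763) differed by 1.61 (SE 0.58), with overlapping groups and a call that was lost without replicate 1 or 3 of axin2-/- or replicate 2 or 3 of the double mutant (adjusted p up to 0.13).

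Of 17 organizer genes tested, 4 were higher and 3 lower, which is 41.2%, close to the 38.6% of all genes, with a median of 0.09, and the count was 4 without axin2-/- replicate 3. Besides FOXA2 and frzb, the anterior genes otx2a and hhex were higher, by 0.64 (SE 0.22) and 1.07 (SE 0.35). frzb also rose in nkd1-/- against Tu, by 0.91, while hhex differed by 0.26 and was not called. The otx2a call was lost without replicate 1 or 3 of either group (adjusted p up to 0.116) and the hhex call without replicate 1 or 3 of axin2-/- or double mutant replicate 3 (adjusted p up to 0.10). noto, the notochord homeobox gene, stood at 47.6, 46.5 and 50.2 CPM in double mutants, against 65.4, 56.1 and 64.3 CPM in axin2-/-. It fell by 0.36 (SE 0.10, adjusted p = 0.0101) without overlap, and the Nodal co-receptor gene tdgf1 fell by 0.45 (SE 0.08), both TL-like. chrd and GSC, the dorsal BMP antagonist and organizer homeobox genes, differed by 0.07 (SE 0.13) and -0.09 (SE 0.11) and were not called. SHH (ENSDARG00000038867), under 1 CPM, differed by -2.19 (SE 0.76), a call lost without replicate 2 or 3 of axin2-/- or replicate 1 or 2 of the double mutant (adjusted p up to 0.094) and with the compared groups alone in the fit (adjusted p = 0.0563).

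Of 26 Nodal, FGF and mesendoderm genes, 5 were higher and 4 lower in double mutants, which is 34.6%, against 38.6% of all genes, with a median of 0.06. The endoderm genes sox32 and SOX17 rose. sox32 stood at 206, 176 and 203 CPM in double mutants and at 79.3, 117 and 72.3 CPM in axin2-/-, without overlap, and rose by 1.12 (SE 0.20, adjusted p = 0.000399). SOX17 rose by 1.53 (SE 0.30), beside 1.44 (SE 0.29) in nkd1-/- against Tu. The signal genes fgf17 and ndr1 fell by 0.72 (SE 0.14) and 0.62 (SE 0.18), and mixl1, a Nodal-induced homeobox gene, by 0.54 (SE 0.10). The ndr1 call was lost without axin2-/- replicate 1 (adjusted p = 0.077). Unlike SOX17, the genes sox32, fgf17 and ndr1 were not called in nkd1-/- against Tu, with differences of 0.46, 0.24 and -0.21.

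Of 19 pluripotency and early neural genes, 4 were higher and 4 lower, which is 42.1%, close to the 38.6% of all genes, with a median of 0.06. The count was 4 without double mutant replicate 3 and 5 without axin2-/- replicate 2. nanog (ENSDARG00000075113), a maternal pluripotency factor gene, stood at 221, 193 and 213 CPM in double mutants, against 408, 338 and 451 CPM in axin2-/-. It fell by 0.93 (SE 0.21, adjusted p = 0.0021), and by 1.16 (SE 0.21) in nkd1-/- against Tu, with Tu and TL bounded under 1.5-fold of each other. sox19b, also maternal, rose by 0.79 (SE 0.15), beside 1.16 (SE 0.15) in nkd1-/- against Tu. The forebrain gene SIX3 (ENSDARG00000054879) stood at 3.12, 2.04 and 2.67 CPM in double mutants and at 0.0385, 0.497 and 0.216 CPM in axin2-/-, a rise of 3.38 (SE 0.58, adjusted p = 0.00032). Its lower copy (ENSDARG00000058008) differed by 2.35 (SE 0.78), and nr2f5 by -2.46 (SE 0.90), and both calls were lost without replicate 1 or 2 of axin2-/- or replicate 1 or 3 of the double mutant (adjusted p up to 0.089 and 0.11). With a replicate block the nr2f5 call was lost too (adjusted p = 0.0535).

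Genes of cell stress, cell cycle arrest and cell death were lower in double mutants at 8 of 18 members and higher at 1, which is 50.0% called, against 38.6% of all genes, with a median of -0.24. Lower genes made up 44.4% of the list, against 19.5% of all genes. The summed level of the list, which weighs abundant genes most, ran the other way. It was 4626 to 4793 CPM in double mutants, against 3754 to 4321 CPM in axin2-/-. Leaving out 1 sample gave 6 to 9 members called in either direction. PHLDA3, a gene whose product restrains Akt, stood at 6.90, 13.3 and 8.71 CPM in double mutants, against 37.9, 22.8 and 22.8 CPM in axin2-/-. The cell cycle inhibitor gene cdkn1a stood at 2.08, 2.77 and 2.08 CPM in double mutants, against 10.5, 4.10 and 4.82 CPM in axin2-/-. Neither gene overlapped between the groups, axin2-/- replicate 1 was the highest for both, and they fell by 1.53 (SE 0.33, adjusted p = 0.0019) and 1.49 (SE 0.34, adjusted p = 0.0026). SESN1, GADD45A (ENSDARG00000043581), casp8 and mdm2 fell by 1.24 (SE 0.27), 1.13 (SE 0.35), 1.05 (SE 0.21) and 0.45 (SE 0.14), and of these casp8 is TL-like. The calls of GADD45A and mdm2 were lost without axin2-/- replicate 1 or double mutant replicate 3 (adjusted p up to 0.107 and 0.0631). bbc3, a death-promoting gene of the Bcl-2 family, differed by -1.51 (SE 0.42), a call lost without axin2-/- replicate 1 (adjusted p = 0.057). hsp70l differed by -2.84 (SE 1.04), a call lost without axin2-/- replicate 2 or double mutant replicate 1 or 3 (adjusted p up to 0.34) and with DESeq2 (adjusted p = 0.0566). The heat shock protein gene HSPB1 rose by 0.48 (SE 0.14). PHLDA3 averaged 9.64 CPM in double mutants, 17.3 CPM in Tu and 10.7 CPM in TL, and cdkn1a 2.31, 2.88 and 2.26 CPM. Against TL, axin2-/- embryos were higher by 1.38 at PHLDA3, 1.52 at cdkn1a and 5.02 at hsp70l (adjusted p = 0.0068, 0.0042 and 0.0085). At bbc3 that difference was 0.92 and not called (adjusted p = 0.13). None of PHLDA3, cdkn1a, bbc3 and hsp70l was called in nkd1-/- against Tu, with differences of -0.09, 0.51, 0.10 and 2.77.

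Markers of other cell layers moved in the same comparison. Of 12 enveloping layer markers, 6 were higher and 1 lower in double mutants, which is 58.3%, against 38.6% of all genes, with a median of 0.47. Their summed level was 11500 to 12082 CPM in double mutants, against 8676 to 10472 CPM in axin2-/-. The count of 7 was 5 to 10 when 1 sample was left out, 6 with DESeq2 size factors and 10 with a replicate block. The keratin genes krt5 and cyt1 rose by 0.60 (SE 0.16) and 0.71 (SE 0.16), beside 0.60 (SE 0.16) and 0.79 (SE 0.16) in nkd1-/- against Tu. The krt92 difference of 0.51 (SE 0.15) lost its call without axin2-/- replicate 3 (adjusted p = 0.055). The call of the keratin gene krt4 was lost without any one sample other than axin2-/- replicate 2 (adjusted p up to 0.144). It was also lost with DESeq2 and with its size factors. That of grhl3 was lost without axin2-/- replicate 1 or double mutant replicate 2 (adjusted p up to 0.063). Of 9 yolk syncytial layer markers, 4 were higher and 2, mxtx2 and GATA3, were lower (66.7%, against 38.6% of all genes). Their summed level was 4225 to 4413 CPM in double mutants, against 2952 to 3760 CPM in axin2-/-. Most of that sum was apoeb, at 3558 CPM in double mutants and 2599 CPM in axin2-/-. The calls of apoeb and of the marker GATA3 were lost without any one sample other than axin2-/- replicate 2 (adjusted p up to 0.165 and 0.181). The apoeb call was also lost with DESeq2, and that of GATA3 without a filter and with the compared groups alone in the fit. The count of 6 was 3 without axin2-/- replicate 1 or without double mutant replicate 2 or 3. SLC26A1, which is strain-bounded, rose by 0.70 (SE 0.11, adjusted p = 0.00013), beside 0.50 (SE 0.11) in nkd1-/- against Tu. The apolipoprotein gene apobb.1 rose by 1.40 (SE 0.30) and is Tu-like, and APOB differed by 2.63 (SE 0.89), a call lost without replicate 1 or 2 of axin2-/- or replicate 2 or 3 of the double mutant (adjusted p up to 0.082). Of 9 germ cell markers, 3 were higher and 2 lower (55.6%, against 38.6% of all genes), with 556 to 587 CPM in double mutants, against 350 to 622 CPM in axin2-/-, and the count of 5 was 3 without double mutant replicate 2 or 3. Every tested marker of the 3 layers had counts in all 15 samples, except APOB, which had none in 1 axin2-/- and 1 TL sample. The part of these markers in the gene groups above was not tested.

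Some genes were measured in one group and had no read in the other. With no count in any double mutant sample and a mean of at least 1 CPM in axin2-/-, 18 genes were found, of which 10 were Tu-like, 3 TL-like and 5 without a strain call. With no count in any axin2-/- sample and at least 1 CPM in double mutants, 13 genes were found, of which 6 were Tu-like, 2 TL-like and 5 without a strain call. Of the 18 genes, 7 also had no count in nkd1-/-, 5 none in Tu and 1 none in TL. Of the 13 genes, 0 lacked counts in nkd1-/-, 4 had none in Tu and 5 none in TL. Over all 21614 genes tested, 91 had no count in nkd1-/-, 134 none in Tu and 111 none in TL. si:dkey-125e8.4 (ENSDARG00000041333), chosen after its values were seen, had 15.5, 25.1 and 31.8 CPM in axin2-/- and averaged 42.8 CPM in TL, and no count in any double mutant, nkd1-/- or Tu sample. Taking 3 counts over the group as the floor, it was at least 1181-fold lower in double mutants. casp23, of the caspase family and likewise chosen after its values were seen, had no count in double mutants and 12.3, 5.75 and 7.85 CPM in axin2-/-, and every nkd1-/-, Tu and TL sample had counts.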

How the data were processed

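RNA from pools of 10 embryos was taken with a FroggaBio GENEzol TriRNA Pure kit and libraries were made with NEBNext Ultra II, per the labels' protocols. The authors deposited a table of whole-number counts per Ensembl gene ID, not normalized, with a column for each of the 15 samples. GRCz11 and edgeR 3.30.3 are listed, with no role, per the submitters' processing notes. The aligner, counter, annotation and use of strand are not given in the sources used here.

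Genes were filtered with filterByExpr (minimum count 10, minimum total count 15) and scaled by TMM in edgeR 4.0.16 (R 4.3.3). One quasi-likelihood model with group as its factor held all 15 samples (10 residual degrees of freedom), and p-values were adjusted by Benjamini-Hochberg over the 21614 genes tested. The SE and 95% interval come from the fitted weights and the moderated quasi-likelihood dispersion. The threshold for a call was an adjusted p of 0.05. Tu-like and TL-like genes were called in both the double mutant and strain comparisons, with the same and with opposite signs. On simulated counts for the double mutant against axin2-/- comparison, 66% of genes changed by 1 and 98% of genes changed by 2 on the log2 scale were called (21019 genes tested), with 11 unchanged genes called. The changed genes had a mean of at least 1 CPM, and the simulated spread depended on level alone, so lower or more variable genes are not covered. Of 50 genes changed by 1 in both the double mutant and Tu, 31 were put in the Tu-like class. Of 50 changed by 2, 47 were.

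Symbols came from a table that paired 29201 of the 32520 IDs. The genes named were the targeted genes, every called Wnt target, at most 4 called members of each other list by size of difference, and the 4 largest rises and falls of each class with a mean of at least 5 CPM, no overlap and a symbol that is not a clone name. In the strain-bounded class, genes that also moved the same way in nkd1-/- against Tu came first. Further list members were named after their values were seen. The members and lists were chosen with earlier results of these data known. Of 215 list symbols, 6 found no ID. Libraries differed in total by less than 2-fold, and replicates of a group differed by more than sampling noise (chi-square per degree of freedom 12.6 to 69.7), so all were counted. The alternatives were DESeq2 (1.42.0) and its size factors, no filter, fits of the compared groups alone, a replicate block, a threshold of 1 on the log2 scale, and leaving out each sample in turn.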

Additional observations from a re-analysis of the deposited data

Results flagged for a closer look

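The effect of nkd1 loss differed between the axin2-/- background and Tu at 5069 genes, by edgeR's test of the difference itself, the double mutant minus axin2-/- difference minus the nkd1-/- minus Tu difference. The genes chosen by the naming rule, the other called list members and the genes named after their values were seen are given, where their adjusted p was under 0.05, with this difference on the log2 scale, and no explanation was tested.

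The double mutant against axin2-/- difference also takes in strain ancestry and family, so nkd1 loss cannot be told apart from them at any gene. At Tu-like genes the difference also has the direction of Tu against TL. The test called 1419 of the 2058 Tu-like genes. At s100s the double mutant against axin2-/- difference minus the strain difference was 0.36 (adjusted p = 0.65). At il23r, HAPLN4 and znf1156 it was 1.22, 5.24 and 8.15, all called. These genes and s100s, like the other class examples, were ranked by their difference in double mutants against axin2-/-. That choice favours large values in this test and in the test between the effects of nkd1 loss. Among Tu-like genes, the difference between the 2 effects of nkd1 loss was 11.14 at il23r, 10.32 at HAPLN4, 8.39 at znf1156 and 7.95 at s100s. It was -7.11 at ENTREP1, -5.98 at TNC, -4.29 at serpinb1l4 and -2.62 at antxr1c. The yolk genes APOB and apobb.1 had differences of 5.58 and 2.61, and both were lower in nkd1-/- than in Tu, and the Wnt target IRX3 (ENSDARG00000101076) had -0.76. The difference was 0.60 at the claudin gene cldnf and 0.48 at pygo2. Among TL-like genes the difference was 4.31 at apoa1a, -3.47 at STYXL2, -3.17 at SLC5A2, -2.84 at NCKAP1L, -2.48 at trim25, -1.14 at casp8, -1.06 at TMEM97 and -0.65 at ZIC2 (ENSDARG00000015554). At casp23 the fitted difference was -9.03, which is no measure of size because double mutants had no count.

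Among genes with no strain call, the difference was 3.31 at szl, 1.53 at ARRDC2, 1.17 at BMP4, 1.09 at znf1096, 0.73 at ved, 0.72 at eve1, 0.60 at RYK, 0.52 at BAMBI (ENSDARG00000055381) and 0.44 at SOX11 (ENSDARG00000077811). It was -5.61 at hsp70l, -2.91 at DLX3, -2.0 at cdkn1a, -1.85 at SESN1, -1.56 at PKP3, -1.52 at TRDMT1, -1.44 at PHLDA3, -1.17 at mxtx2, -1.05 at KIF21B, -0.96 at fgf17, -0.90 at mdm2 and -0.43 at mixl1. At NKD2, which was not called between double mutant and axin2-/-, it was -2.89. For szl the 2 effects had opposite signs and both were called. mxtx2, PKP3, TRDMT1 and KIF21B were chosen among genes that moved the same way in both comparisons. They were also ranked by the size of their fall in double mutants against axin2-/-. ARRDC2 and znf1096 were likewise ranked by their rise. That ranking favours a larger effect in the axin2-/- background. For mxtx2, PKP3, TRDMT1 and KIF21B both effects were falls, and the fall was larger in the axin2-/- background. At PKP3 and TRDMT1 that fall started from a raised level. Against TL, axin2-/- embryos were called higher there by 1.09 and 0.89 (adjusted p = 0.00025 and 0.00059). At mxtx2 and KIF21B the differences from TL were 0.40 and 0.44 and were not called.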

How the results depend on the processing

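The 8340 calls between double mutant and axin2-/- were 8961 with DESeq2 (8256 of the same genes), 8340 with its size factors, 8063 without a filter and 7929 with the compared groups alone. Same-numbered samples of the double mutant and axin2-/- did not deviate together (correlations of 0.023, 0.039 and -0.020), so the numbers do not pair them, and with a replicate block 8456 genes were called. No log2 difference of the genes chosen by the naming rule reversed, nor did any of the other 48 called list members (an alternative chosen after seeing the data), of which 10 lost their call under a setting other than leaving out a sample. A replicate block ended the nr2f5 call. Leaving out 1 sample gave 6491 to 7672 calls, 5333 to 5861 between Tu and TL, 1637 to 1962 Tu-like, 767 to 987 TL-like, 4058 to 5990 without a strain call and 1379 to 1933 strain-bounded genes. It gave 5560 to 6426 calls in the test against the strain difference, 1091 to 1644 genes that moved the same way and 156 to 266 that moved the opposite way in nkd1-/- against Tu, and 4040 to 5206 calls between the effects of nkd1 loss. Members called ranged from 4 to 7 for organizer, 4 to 6 for pluripotency and neural, 3 to 5 for yolk syncytial layer, 3 to 4 for germ cell and 9 to 13 for Wnt target genes (alternatives chosen after seeing the data). In the same fits they ranged from 9 to 10 for ventral and BMP, 6 to 9 for stress and 5 to 10 for enveloping layer genes. The second Wnt list gave 19 to 22, and Nodal, FGF and mesendoderm genes gave 7 to 9. A threshold of 1 on the log2 scale, which keeps fewer genes by construction, left 4385 calls, 1255 Tu-like, 552 TL-like, 2578 without a strain call and 209 strain-bounded genes. It also left 2662 calls beyond the strain difference, 784 and 109 that moved the same and the opposite way in nkd1-/- against Tu, and 2307 between the effects of nkd1 loss. With the compared groups alone, 135 genes moved the opposite way, and the cause was not tested. An adjusted p of at least 0.5 between the strains left 2182 genes without a strain call, and a bound of 2-fold gave 3354 strain-bounded genes. Gene positions could be matched for 63.4% of tested genes, under the 80% needed, so the planned check of genes near nkd1 and axin2 is void. The planned promoter motif search was not run. At this depth, genes under 1 CPM have wide intervals.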
